A study of Mus musculus with 6 samples.

Results

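The splicing regulators of the Rbfox, Nova, Ptbp and SRRM families were followed in RNA-seq data of mouse hippocampus, a brain region needed for learning and memory. The 10 genes Rbfox1, Rbfox2, Rbfox3, Nova1, Nova2, Ptbp1, Ptbp2, Ptbp3, Srrm3 and Srrm4 were chosen by symbol and mapped through the GENCODE M21 annotation of the mouse genome build GRCm38. They are 10 of the 36008 genes of the series, and they hold 93 of the 116622 transcripts that could be matched to the annotation. The study compared 3 WT mice with 3 Prmt9 KO mice, all females of strain B6J aged 2 weeks, to find genes whose expression or splicing depends on PRMT9, an arginine methyltransferase that modifies the splicing factor SF3B2. The KO mice lack the floxed exon of Prmt9 in the whole body after germline recombination by CMV-Cre, and the WT mice were littermates of the same sex. Each library was made from the polyadenylated RNA of the hippocampus of a single mouse. The estimated counts summed to between 194098391 and 286771677 per mouse.

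Rbfox proteins bind UGCAUG elements and activate an exon when they bind downstream of it. Nova proteins bind YCAY clusters and act on synaptic exons in the same position-dependent manner. PTBP1 binds pyrimidine-rich sequence and represses neuronal exons in progenitors and glia, and its neuronal paralog PTBP2 takes over as neurons are formed, while SRRM3 and SRRM4 promote the inclusion of very short neuronal exons termed microexons. Many of these genes also splice their own transcripts, so that a protein present in excess lowers its own output.

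Prmt9 itself was checked first. Its deposited level, in TPM (transcript abundance scaled to a fixed library total), was 11.8, 15.2 and 15.0 in WT mice 1, 2 and 3 and 3.93, 4.61 and 4.67 in KO mice 1, 2 and 3. Every KO mouse lay below every WT mouse, and 31.5% of the WT mean remained. On the log2 scale KO differed from WT by −1.71, with a standard error (SE) of 0.10 (edgeR quasi-likelihood test, adjusted p = 0.0327).

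Mice numbered 1 stood apart from the other 4 mice in both genotypes. The leading principal component held 79.5% of the variance in log2 gene CPM and placed WT mouse 1 at −55.1 and KO mouse 1 at −37.7, with the other mice between 19.9 and 25.7. In CPM, 8 of 8 oligodendrocyte markers were lower in these mice than in any other mouse. Likewise 8 of 8 markers of progenitors and immature neurons were higher. The summed oligodendrocyte markers were 2224 TPM in WT mouse 1 and 1165 TPM in KO mouse 1, against 8598 to 12623 TPM in the other 4 mice, and the progenitor markers summed to 83.6 and 92.0 TPM against 54.8 to 57.6 TPM. None of the 10 neuron markers was at 0 in any mouse, and their sum was 3408 to 4031 TPM in WT and 3705 to 4474 TPM in KO, although in both mice numbered 1 the CPM of 6 markers lay below and that of 4 above the other 4 mice. Astrocyte markers summed to 1671 and 1796 TPM in the mice numbered 1 against 2542 to 2828 TPM in the others. In CPM, 5 of 8 astrocyte markers were lower and 2 were higher in both mice numbered 1 than in the others. On the same scale 7 of 8 mural and fibroblast markers were higher in both mice numbered 1. Markers of the choroid plexus and ependyma, which line the ventricles, summed to 7311 TPM in WT mouse 1 and to 635 to 3372 TPM in the other 5 mice. The part of these cell types in the results below was not tested, except where values without both mice numbered 1 are given. Bulk libraries cannot tell fewer cells of a type from less RNA per cell. The TPM scale itself differed as well, since the median gene had a log2 TPM 0.37 lower in WT mouse 1 and 0.15 lower in KO mouse 1, relative to CPM (normalized counts on a fixed library total), than in the other 4 mice. The share of transcripts at 0 was 37.4% in WT mouse 1 and 22.8% to 24.8% in the other mice.

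All 10 regulators were expressed in every mouse, over a wide range of levels. In WT, Rbfox1, Rbfox3 and Rbfox2 averaged 162 ± 62, 148 ± 35 and 108 ± 32 TPM (SD, n = 3), which was 24.8%, 22.6% and 16.4% of the summed level of the 10 genes. Ptbp2 was at 76.4 ± 3.1 TPM. Srrm3 followed at 58.4 ± 20.2, Ptbp1 at 36.1 ± 4.9, Nova2 at 23.6 ± 1.2, Srrm4 at 18.9 ± 6.6, Nova1 at 15.3 ± 3.7 and Ptbp3 at 7.85 ± 2.70 TPM (SD, n = 3 each). Over the 6 mice, neighbours in this order overlapped except at 3 steps, between Ptbp2 and Srrm3, between Ptbp1 and Nova2 and between Nova1 and Ptbp3. Within single mice the order was steadier, as Rbfox3 exceeded Rbfox2, and Srrm3 exceeded Ptbp1, in 6 of 6 mice. Rbfox1 exceeded Rbfox3 in 4 of 6 mice, namely in all but the mice numbered 1.

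**Figure D1:**
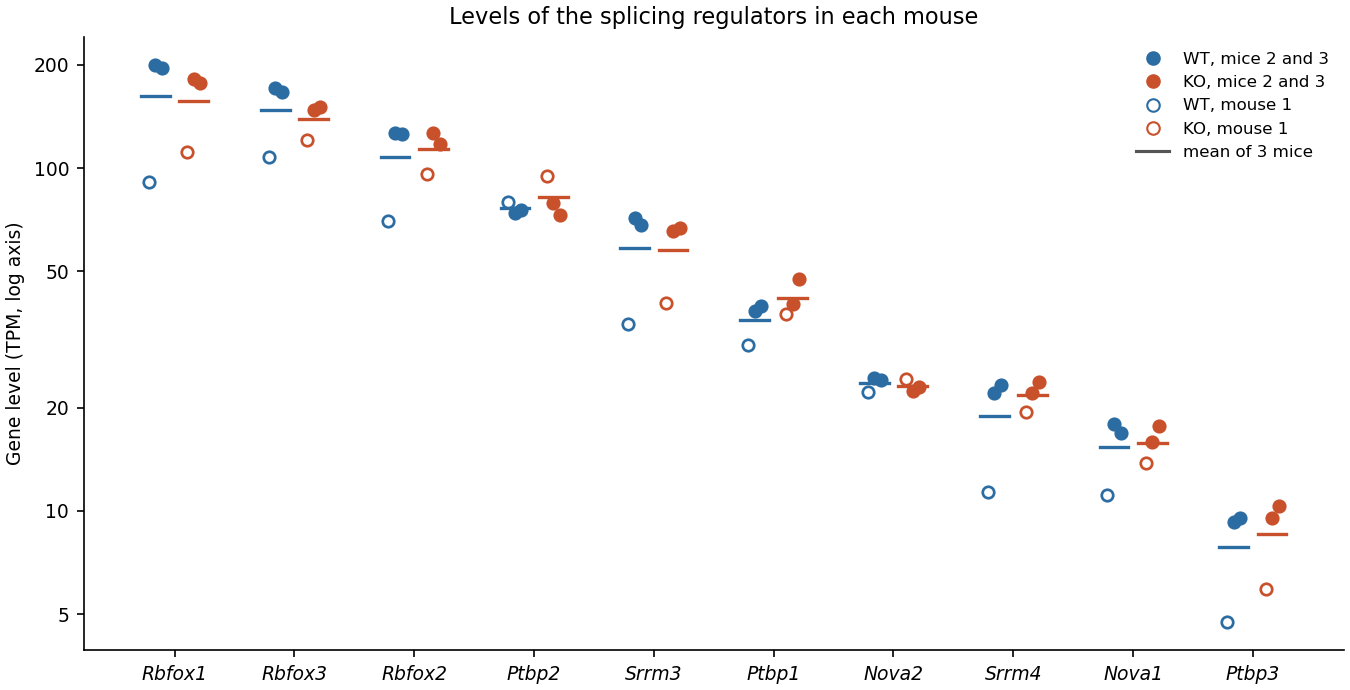
Level of each regulator in TPM on a log axis, for WT (blue) and Prmt9 KO (orange) mice, with open circles for the mice numbered 1 and bars for the means of 3 mice. Rbfox1 reaches 200.5 TPM and Ptbp3 stays at or below 10.3 TPM, and WT and KO points overlap for every gene.

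None of the 10 genes passed the limits set for differential expression between genotypes, namely a fold change over 1.5 at an adjusted p under 0.01, and 0% of the 20315 genes tested did so in edgeR. Prmt9 did not pass either, at its adjusted p of 0.0327 (edgeR), so in this fit the limits missed the deleted gene itself. The paper, which used DESeq2 at the same limits, reports Prmt9 as the only differentially expressed gene. At an unadjusted p below 0.05 the count was 0 of 10, beside 1.24% of all genes, and the DESeq2 Wald test called none of the 10 either. Their log2 fold changes ran from −0.11 for Nova2 to 0.16 for Srrm4, with SE of 0.10 to 0.22 and a median of 0.00, where the median of all genes was −0.01. The lowest adjusted p was 0.9999 (edgeR). The 95% intervals reached from −0.61 to 0.49 on the log2 scale over the 10 genes, so changes beyond 0.655-fold or 1.40-fold lay outside the interval of every member. The intervals differed in width, with the narrowest at 0.865-fold to 1.204-fold for Nova1 and the lowest bound for Rbfox1. The CPM of WT and KO mice overlapped for all 10 genes, as did their TPM, whereas 7.01% of all genes did not overlap in CPM and 6.73% did not in TPM.

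**Figure D2:**
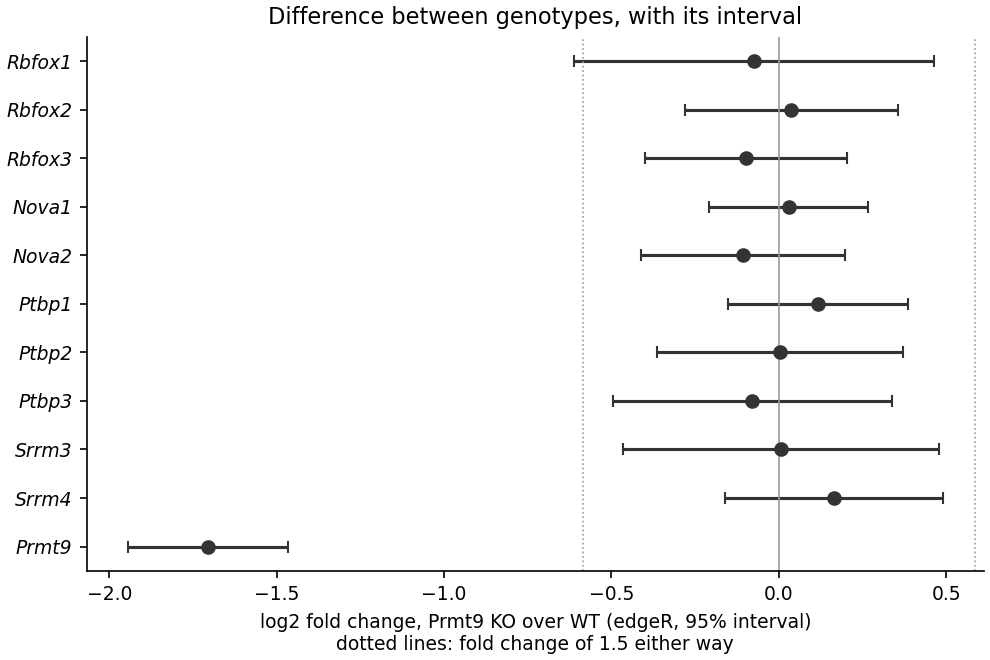
Log2 fold change of Prmt9 KO over WT for the 10 regulators and for Prmt9, as points with 95% intervals from edgeR, and dotted lines at a fold change of 1.5 in either direction. All 10 regulators have intervals that span 0, and Prmt9 lies at −1.71.

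The larger differences in level lay between the mice numbered 1 and the rest. On the CPM scale, 5 of the 10 genes were lower in both mice numbered 1 than in any other mouse (31.5% of all genes were) and 2 were higher (32.7% of all genes were), so the members followed the background of this split. Rbfox1, Srrm3, Ptbp3, Rbfox3 and Rbfox2 were the lower genes, at 0.681, 0.721, 0.762, 0.852 and 0.860 times the geometric mean of the other 4 mice. Ptbp2 and Nova2 were the higher genes, at 1.26 and 1.19 times. Without both mice numbered 1, 5 of the 10 genes had an unadjusted p below 0.05 in edgeR, beside 16.4% of all genes in that fit, with Ptbp1 higher in KO by 0.18 on the log2 scale and Rbfox3, Ptbp3, Nova2 and Rbfox1 lower, at −0.14, −0.11, −0.10 and −0.09. None passed adjustment, the lowest adjusted p being 0.167 for Rbfox3 (edgeR), and 2 mice against 2 carry that fit.

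Rbfox1 (ENSMUSG00000008658, chromosome 16, positions 5885355 to 7411526, forward strand) encodes the Rbfox protein of neurons, heart and muscle. Its TPM was 91.1, 200.5 and 196 in WT mice 1, 2 and 3 and 112, 182 and 177 in KO mice 1, 2 and 3, so the 2 genotypes overlapped and the mice numbered 1 were the lowest of each. The log2 fold change was −0.07 with an SE of 0.22, the largest SE among the 10 genes. Rbfox2 (ENSMUSG00000033565, chromosome 15, positions 77078990 to 77307004, reverse strand), which is expressed widely outside the brain as well, had 70.2, 127 and 126 TPM in WT and 96.3, 127 and 118 TPM in KO. Its log2 fold change was 0.04 with an SE of 0.13. Rbfox3 (ENSMUSG00000025576, chromosome 11, positions 118489762 to 118911597, reverse strand) encodes NeuN, the antigen used to mark mature neurons. It was at 108, 171 and 166 TPM in WT and at 121, 148 and 151 TPM in KO, and the log2 fold change was −0.10 with an SE of 0.12.

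All 3 Rbfox genes carry an in-frame exon of 93 bases, or 31 codons, inside the RNA recognition motif. Skipping of this exon by Rbfox proteins themselves gives a protein that cannot bind RNA, which makes it the autoregulatory exon of the family. The 3 exons are shown as GENCODE M21 gives them, 5′ to 3′, with capitals for the 67 positions that are the same in all 3 genes.
Rbfox1 93-base exon, chr16:7292185-7292277, forward strand: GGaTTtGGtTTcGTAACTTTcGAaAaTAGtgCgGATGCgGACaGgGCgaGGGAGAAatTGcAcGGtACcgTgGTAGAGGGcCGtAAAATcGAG
Rbfox2 93-base exon, chr15:77105577-77105669, reverse strand: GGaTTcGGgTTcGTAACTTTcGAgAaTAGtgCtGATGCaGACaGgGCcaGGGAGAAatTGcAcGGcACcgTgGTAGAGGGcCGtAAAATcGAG
Rbfox3 93-base exon, chr11:118502842-118502934, reverse strand: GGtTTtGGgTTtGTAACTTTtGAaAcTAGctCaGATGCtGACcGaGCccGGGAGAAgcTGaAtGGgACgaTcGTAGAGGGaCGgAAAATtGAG
Rbfox1 and Rbfox2 share 86 of the 93 bases in this exon, and Rbfox3 shares 69 bases with each of them.

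Inclusion was expressed as percent spliced in (PSI), here a fraction from 0 to 1, the TPM of the transcripts that hold the exon divided by the TPM of these and of the transcripts that skip it. In Rbfox2 the PSI of the 93-base exon was 0.940, 0.917 and 0.919 in WT mice 1, 2 and 3 and 0.926, 0.908 and 0.908 in KO mice 1, 2 and 3. The groups overlapped, the difference was −0.0115 and an exact permutation test (two-sided) gave p = 0.3, where 3 mice in each genotype allow no value under 0.1. Between mice of the same number KO differed from WT by −0.0141, −0.00926 and −0.0110, all in one direction. The size and sign depended on the values used, as the difference was −0.00238 from estimated counts, −0.00405 without WT mouse 1 and 0.000474 relative to the TPM of the whole gene. Of the 15 annotated Rbfox2 transcripts, only Rbfox2-207 skipped the exon. In Rbfox3 the exon was included at 0.991, 0.981 and 0.986 in WT and at 0.988, 0.978 and 0.9749 in KO, again with overlap. Among the transcripts counted in this PSI, which hold the exon or skip it, those with the exon therefore prevailed in both genes and genotypes. Transcripts of these genes that do neither are not counted. The Rbfox1 exon is in 6 of 8 annotated transcripts and none joins its neighbours directly, so its skipping could not be followed in these values.

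Towards the 3′ end of the coding sequence, Rbfox genes choose between a 40-base exon used in brain and a 43-base exon used in muscle. These exons set the C-terminal end of the protein and are printed with capitals for bases shared within each set. The 40-base exons are given for 3 genes, of which 30 positions are common to all, and the 43-base exons for 2 genes, with 27 positions in common.
Rbfox1 40-base exon, chr16:7363865-7363904, forward strand: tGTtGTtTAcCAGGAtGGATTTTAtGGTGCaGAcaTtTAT
Rbfox2 40-base exon, chr15:77094451-77094490, reverse strand: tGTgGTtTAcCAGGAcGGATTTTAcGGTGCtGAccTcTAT
Rbfox3 40-base exon, chr11:118496351-118496390, reverse strand: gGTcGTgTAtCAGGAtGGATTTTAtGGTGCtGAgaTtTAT
Rbfox1 43-base exon, chr16:7369801-7369843, forward strand: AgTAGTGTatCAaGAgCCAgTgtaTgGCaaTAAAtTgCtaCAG
Rbfox2 43-base exon, chr15:77091812-77091854, reverse strand: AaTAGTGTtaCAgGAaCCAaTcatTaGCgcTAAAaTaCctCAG
The brain exon prevailed in both genes. Its share against the muscle exon was 0.941, 0.817 and 0.829 in WT and 0.855, 0.851 and 0.842 in KO for Rbfox1 (limma, unadjusted p = 0.566), and 0.907, 0.867 and 0.868 in WT and 0.879, 0.855 and 0.859 in KO for Rbfox2 (limma, unadjusted p = 0.427). WT mouse 1 had the highest share in each gene, and the genotypes overlapped.

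Among the Rbfox1 transcripts, Rbfox1-201, which carries the brain exon, led with a share of 0.683, 0.557 and 0.550 of the gene's TPM in WT and 0.630, 0.591 and 0.597 in KO. Rbfox1-203, which carries the muscle exon, had shares of 0.0415, 0.0997 and 0.106 in WT and 0.0534, 0.104 and 0.104 in KO. Rbfox1-208 was lower still in the mice numbered 1, at 0.0137 in WT mouse 1 and 0.0254 in KO mouse 1, against 0.0729 to 0.0902 in the other 4 mice. Over the 10 genes, 22 of the 39 transcripts with a mean share of at least 0.05 had both mice numbered 1 outside the range of the other 4, beside 49.3% of such transcripts in the whole annotation.

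In Rbfox2 the in-frame exon of 51 bases had the lowest unadjusted p of all 21 tested events of the 10 genes. It is printed because its inclusion did not overlap between genotypes.
Rbfox2 51-base exon, chr15:77231387-77231437, reverse strand: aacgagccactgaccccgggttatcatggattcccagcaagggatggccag
Its PSI was 0.797, 0.776 and 0.799 in WT mice and 0.863, 0.808 and 0.858 in KO mice, a difference of 0.0522 (limma, unadjusted p = 0.0735, adjusted p = 1). On the scale of estimated counts the KO values of 0.968, 0.941 and 0.968 and the WT values of 0.947, 0.941 and 0.949 overlapped.

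The lowest unadjusted p among the transcripts of the 10 genes was found in Rbfox3. In the usage test Rbfox3 did not lead, with an unadjusted p of 0.944 against 0.756 for Rbfox2 and 0.913 for Ptbp3 (edgeR, Simes). Rbfox3-204, a protein-coding transcript of 1542 bases with 15 exons, was at 18.5, 25.0 and 25.5 TPM in WT mice 1, 2 and 3 and at 12.2, 17.1 and 14.3 TPM in KO mice 1, 2 and 3. All KO mice lay below all WT mice, and the log2 fold change was −0.72 with an SE of 0.14 (edgeR, unadjusted p = 0.00184, adjusted p = 1). Of the 73 transcripts of the 10 genes tested, it was the only 1 with an unadjusted p below 0.05, where 1.61% of all 75661 transcripts tested had such a value. DESeq2 gave a log2 fold change of −0.74 and an adjusted p of 0.00226, so that Rbfox3-204 was the only member transcript among the 112 that DESeq2 called, 0.112% of those in its table, whereas edgeR called 0%. Over the 12 alternatives tried for transcripts, its log2 fold change stayed between −0.81 and −0.67.

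In terms of composition, Rbfox3-204 made up 0.172, 0.146 and 0.153 of the gene's TPM in WT and 0.101, 0.116 and 0.0948 in KO (exact permutation test, p = 0.1). Rbfox3-205 of 3084 bases moved the other way, from 0.191, 0.260 and 0.231 in WT to 0.262, 0.287 and 0.299 in KO (exact permutation test, p = 0.1). The most abundant transcript, Rbfox3-203, held 0.475 ± 0.027 in WT and 0.464 ± 0.027 in KO (SD, n = 3), and its shares overlapped. Only 3 of the 39 transcript shares did not overlap between genotypes, the third being Nova1-204, beside 9.74% of shares in the whole annotation. None could pass adjustment over the 39, as 3 mice in each genotype allow no p under 0.1 (lowest adjusted p = 0.929, exact permutation tests).

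**Figure D3:**
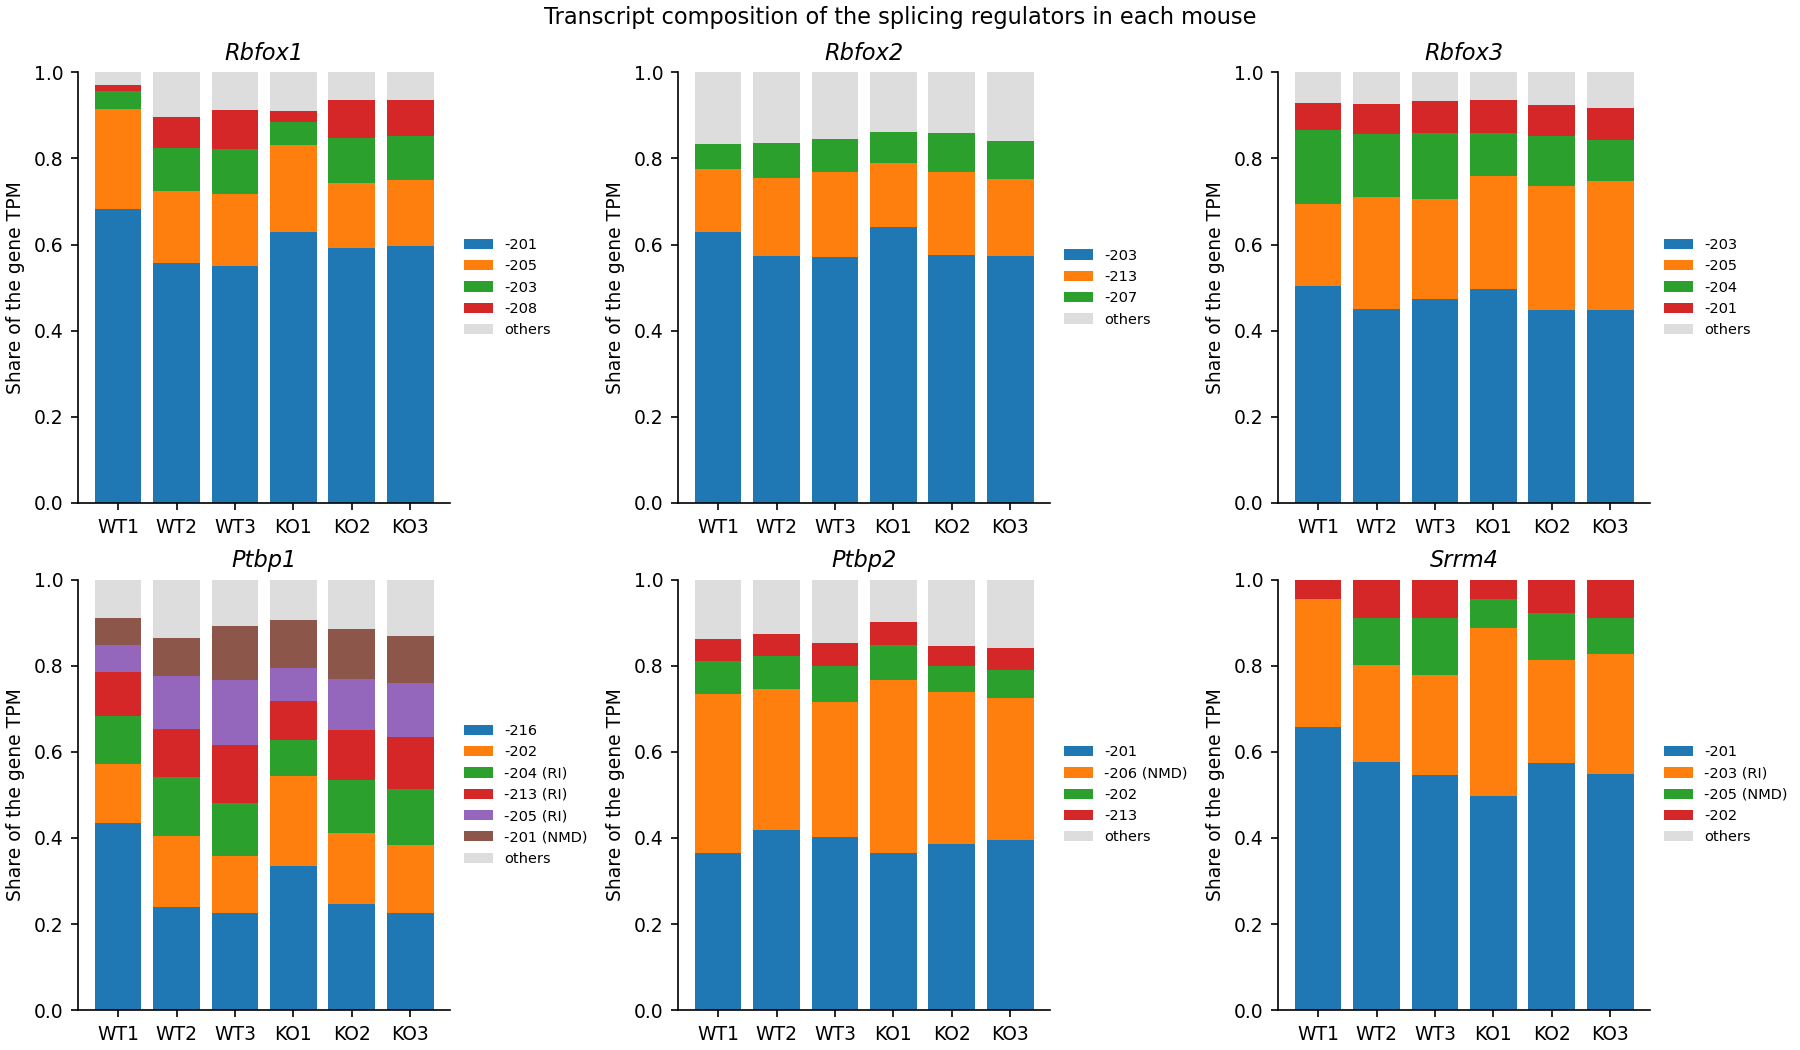
Share of each gene's TPM held by its transcripts in every mouse, stacked to 1, for 6 regulators, with transcripts under a mean share of 0.05 pooled in grey (RI, annotated as retained intron and NMD, annotated as nonsense-mediated decay). The green Rbfox3-204 segment is 0.146 to 0.172 high in WT mice and 0.0948 to 0.116 high in KO mice, while WT mouse 1 and KO mouse 1 differ from the others in Rbfox1, Ptbp1 and Srrm4.

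Of the sites at which the Rbfox3 transcripts differ, 2 had inclusion differences over 0.05. The first is a pair of alternative 3′ splice sites that adds 141 bases, or 47 codons, in front of the 40-base exon shown before. The added segment is printed in lower case and the shared exon in capitals, and the segment ends in ag, the dinucleotide that closes an intron before the shorter form.
Rbfox3 alternative 3′ segment, chr11:118496391-118496531, reverse strand: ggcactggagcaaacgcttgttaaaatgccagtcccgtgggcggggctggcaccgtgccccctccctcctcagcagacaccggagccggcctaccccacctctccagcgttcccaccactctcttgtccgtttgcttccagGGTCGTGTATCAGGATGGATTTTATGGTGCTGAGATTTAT
Its PSI was 0.276, 0.371 and 0.340 in WT and 0.370, 0.401 and 0.420 in KO, a difference of 0.0680, and KO mouse 1 lay just below WT mouse 2 (limma, unadjusted p = 0.0903, adjusted p = 1). Within mouse numbers KO was higher by 0.0936, 0.0303 and 0.0800, and with the mouse number as a block the unadjusted p was 0.0455 and the adjusted p 0.766 (limma). The second site is a 40-base noncoding exon far upstream, skipped by Rbfox3-205 alone, which had a PSI of 0.799, 0.728 and 0.758 in WT and 0.725, 0.700 and 0.686 in KO. These groups did not overlap from TPM (limma, unadjusted p = 0.0890, adjusted p = 1) and overlapped from estimated counts. Both sites are read from the same few transcripts and are not independent of the shares above. In the test of transcript usage Rbfox3 had an adjusted p of 1 with all mice and of 0.0453 without both mice numbered 1 (edgeR, Simes), above the limit of 0.01 in both.

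Nova1 (ENSMUSG00000021047, chromosome 12, positions 46694517 to 46818929, reverse strand) and Nova2 (ENSMUSG00000030411, chromosome 7, positions 18925888 to 18965319, forward strand) encode the Nova proteins, first known as autoantigens of a neurological syndrome. Nova1 was at 11.1, 17.96 and 16.9 TPM in WT and at 13.8, 15.9 and 17.6 TPM in KO, with a log2 fold change of 0.03 and an SE of 0.10. Nova2 was at 22.3, 24.5 and 24.2 TPM in WT and at 24.3, 22.3 and 22.9 TPM in KO, with a log2 fold change of −0.11 and an SE of 0.13. Both genes kept overlapping levels, and Nova2 exceeded Nova1 in every mouse.

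Nova1 carries an in-frame exon of 72 bases that Nova proteins repress in their own transcript. It is printed with its YCAY words in capitals, where Y is T or C, read on the sense strand.
Nova1 72-base exon, chr12:46713498-46713569, reverse strand: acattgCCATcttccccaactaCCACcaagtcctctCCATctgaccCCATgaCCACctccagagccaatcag
The exon holds 5 such words, and 0.965% of the 1347 annotated internal exons of 72 bases hold at least as many, against a median of 1. The exon lies in 2 of the 5 annotated Nova1 transcripts and no annotated transcript skips it, so no PSI could be computed. Nova1-201 of 7154 bases held 0.548 ± 0.036 of the gene's TPM in WT and 0.567 ± 0.056 in KO (SD, n = 3), and 0.959 of the estimated counts in WT. The short Nova1-204 of 480 bases had shares of 0.1496, 0.151 and 0.162 in WT and 0.102, 0.129 and 0.136 in KO, without overlap (exact permutation test, p = 0.1), at no more than 2.73 TPM. The 2 annotated Nova2 transcripts have the same sequence and received the same values, so nothing can be said on their shares.

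Ptbp1 (ENSMUSG00000006498, chromosome 10, positions 79854427 to 79864771, forward strand) was at 30.5, 38.3 and 39.6 TPM in WT mice 1, 2 and 3 and at 37.4, 40.1 and 47.5 TPM in KO mice 1, 2 and 3. Its log2 fold change was 0.12 with an SE of 0.11, and KO mouse 3 was the highest. Ptbp2 (ENSMUSG00000028134, chromosome 3, positions 119718742 to 119784466, reverse strand) was at 79.8, 73.8 and 75.6 TPM in WT and at 94.6, 79.2 and 73.0 TPM in KO, with a log2 fold change of 0.00 and an SE of 0.15. Ptbp3 (ENSMUSG00000028382, chromosome 4, positions 59471868 to 59549364, reverse strand), the paralog known from blood cells, was the least abundant member, at 4.73, 9.31 and 9.52 TPM in WT and 5.90, 9.54 and 10.3 TPM in KO. The mice numbered 1 had the highest Ptbp2 and the lowest Ptbp3 of their genotype.

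The ratio of Ptbp1 to Ptbp2 describes the balance between the repressor of progenitors and glia and that of neurons. It was 0.383, 0.519 and 0.523 in WT mice 1, 2 and 3 and 0.396, 0.507 and 0.651 in KO mice 1, 2 and 3, so that Ptbp2 exceeded Ptbp1 in every mouse. The mean ratio was 0.475 ± 0.080 in WT and 0.518 ± 0.128 in KO (SD, n = 3), a log2 difference of 0.11, with overlap between genotypes (exact permutation test, p = 0.7). Within mouse numbers the log2 differences were 0.05, −0.03 and 0.32. The direction rested on single mice, since the log2 difference was −0.04 without WT mouse 1 and −0.07 without KO mouse 3. Normalized counts gave ratios of 0.502, 0.517 and 0.547 in WT and 0.498, 0.545 and 0.670 in KO, again with overlap (exact permutation test, p = 0.7). The mice numbered 1 had the lowest TPM ratio in both genotypes when all transcripts were counted. From the TPM of protein-coding transcripts alone, the ratios were 0.441, 0.418 and 0.359 in WT and 0.440, 0.422 and 0.502 in KO. These overlapped as well (exact permutation test, p = 0.3), and the mice numbered 1 were not the lowest of either genotype.

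The Ptbp genes share an exon of 34 bases which, because 34 is not a multiple of 3, shifts the reading frame when skipped. PTBP1 causes this skipping in its own transcript and in that of Ptbp2, and the products are degraded by nonsense-mediated decay, the pathway that removes transcripts with early stop codons. The exons are shown with capitals for the 19 positions common to all 3.
Ptbp1 34-base exon, chr10:79862014-79862047, forward strand: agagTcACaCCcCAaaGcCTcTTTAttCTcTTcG
Ptbp2 34-base exon, chr3:119724612-119724645, reverse strand: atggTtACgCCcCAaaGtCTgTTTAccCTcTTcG
Ptbp3 34-base exon, chr4:59485339-59485372, reverse strand: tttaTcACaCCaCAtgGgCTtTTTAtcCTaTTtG
Ptbp1 and Ptbp2 share 26 of the 34 bases, and Ptbp3 shares 22 with Ptbp1 and 21 with Ptbp2.

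In Ptbp1 the exon had a PSI of 0.913, 0.859 and 0.803 in WT and of 0.848, 0.819 and 0.812 in KO. The KO values lay within the range of the WT values (limma, unadjusted p = 0.319). In Ptbp2 it was included at 0.561, 0.593 and 0.6002 in WT and at 0.539, 0.549 and 0.570 in KO, a difference of −0.0320, and KO mouse 3 overlapped with WT mouse 1 (limma, unadjusted p = 0.272). Within mouse numbers the differences were −0.0219, −0.0434 and −0.0307 (limma with the mouse number as a block, unadjusted p = 0.201). Ptbp2 values depend on the unit, because Ptbp2-206, a skipping fragment of 576 bases annotated for nonsense-mediated decay, weighs more per length, with 0.337 of the WT TPM and 0.0760 of the WT estimated counts. From estimated counts the Ptbp2 PSI was 0.892, 0.885 and 0.888 in WT and 0.875, 0.869 and 0.871 in KO, and here the groups did not overlap (exact permutation test, p = 0.1), as for 10.7% of all tested events on that scale. The Ptbp3 exon is in 9 of 13 annotated transcripts and has no annotated skipping form.

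**Figure D4:**
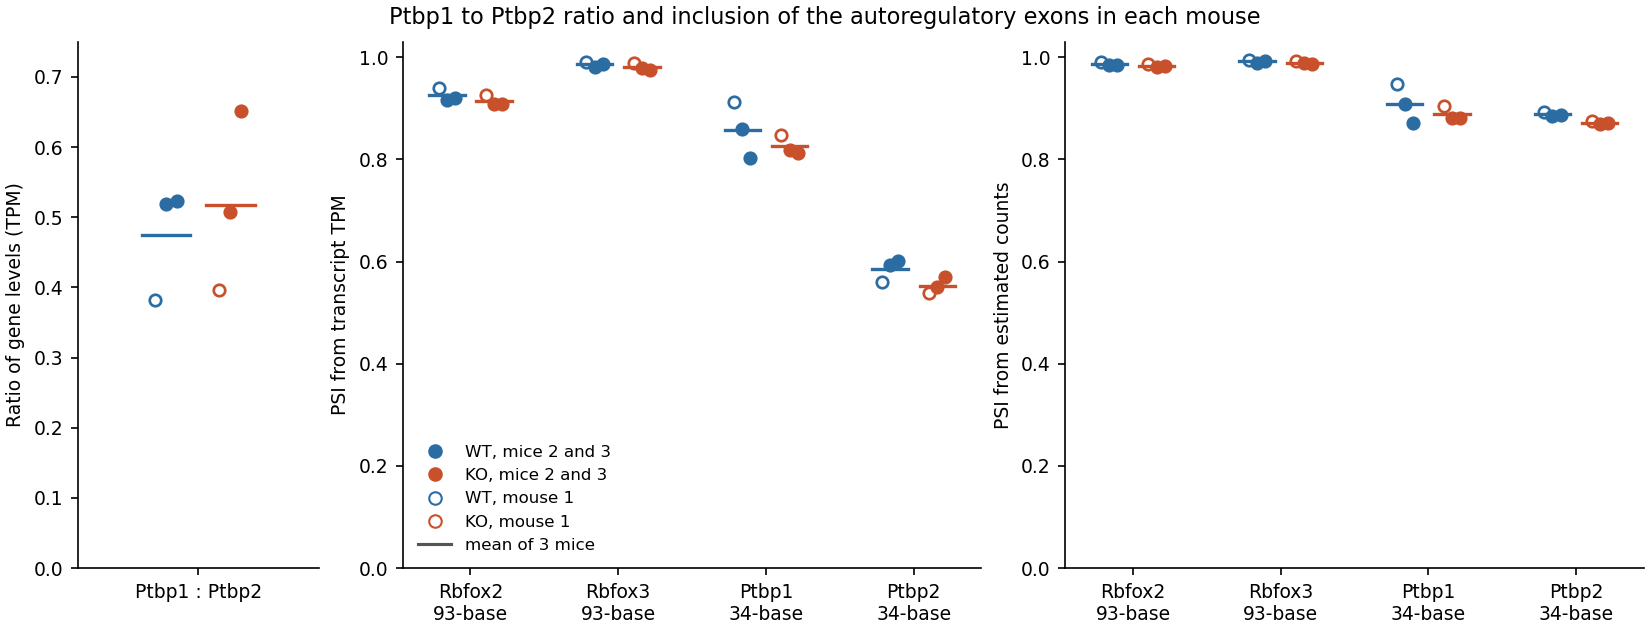
Ratio of Ptbp1 to Ptbp2 levels (left) and PSI of the autoregulatory exons from TPM (middle) and from estimated counts (right) in each mouse, with WT in blue, Prmt9 KO in orange, open circles for mice numbered 1 and bars for means. Ptbp2 inclusion lies between 0.539 and 0.6002 from TPM and between 0.869 and 0.892 from counts, and the KO values lie below the WT values in the latter panel alone.

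Transcripts annotated for nonsense-mediated decay had a higher mean share of Ptbp2 in KO. Those of Ptbp2 are the transcripts that skip the 34-base exon, and their shares are not independent of its PSI above. They made up 0.373 ± 0.014 of the Ptbp2 TPM in WT and 0.406 ± 0.020 in KO, and 0.104 ± 0.003 and 0.119 ± 0.001 of the estimated counts (SD, n = 3). The genotypes did not overlap on either scale (exact permutation tests, p = 0.1), as happened for 9.45% of all genes with such transcripts from TPM and 9.53% from estimated counts. In Ptbp1, Srrm3 and Srrm4 the shares overlapped on both scales, and the 2 such transcripts of Ptbp3 were listed at 0 in every mouse. For Ptbp1 the shares were 0.0923 ± 0.0328 in WT and 0.116 ± 0.003 in KO (SD, n = 3, from TPM).

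Ptbp1 also has an in-frame exon of 78 bases whose inclusion or skipping distinguishes its main protein forms. It is shown because its inclusion did not overlap between genotypes.
Ptbp1 78-base exon, chr10:79860117-79860194, forward strand: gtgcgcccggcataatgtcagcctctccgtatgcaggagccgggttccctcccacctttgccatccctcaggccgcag
The PSI of this exon was 0.693, 0.587 and 0.587 in WT mice 1, 2 and 3 and 0.558, 0.559 and 0.571 in KO mice 1, 2 and 3. All KO values lay below all WT values, and without both mice numbered 1 the means differed by −0.0216 in place of −0.0593 (limma with all mice, unadjusted p = 0.163, adjusted p = 1). Ptbp1-216, a coding transcript of 3110 bases with this exon, held 0.434 of the Ptbp1 TPM in WT mouse 1 and 0.334 in KO mouse 1, against 0.225 to 0.246 in the other 4 mice. A retained intron of 79 bases, read from Ptbp1-205, had a PSI of 0.0878, 0.186 and 0.219 in WT and 0.102, 0.166 and 0.183 in KO, and was likewise lowest in the mice numbered 1.

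In Ptbp3, an alternative 5′ splice site of 9 bases had a PSI of 0.845, 0.654 and 0.540 in WT and 0.676, 0.582 and 0.517 in KO, and a cassette exon of 34 bases, which is not the exon shown above, had 0.628, 0.421 and 0.405 in WT and 0.542, 0.416 and 0.304 in KO. Both were highest in the mice numbered 1 of each genotype and overlapped between genotypes (limma, unadjusted p = 0.313 and 0.458).

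Srrm3 (ENSMUSG00000039860, chromosome 5, positions 135806890 to 135874772, forward strand) was at 35.1, 71.6 and 68.4 TPM in WT and at 40.5, 65.5 and 66.8 TPM in KO, with a log2 fold change of 0.01 and an SE of 0.19. Srrm4 (ENSMUSG00000063919, chromosome 5, positions 116439275 to 116591817, reverse strand) was at 11.3, 22.0 and 23.3 TPM in WT and at 19.4, 22.0 and 23.7 TPM in KO, with a log2 fold change of 0.16 and an SE of 0.13. Srrm3 was therefore the more abundant microexon regulator in every mouse. Outside WT mouse 1, the Srrm4 levels differed by little, from 19.4 to 23.7 TPM.

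Both genes have an annotated microexon of their own that is not a multiple of 3, shown in capitals throughout.
Srrm3 20-base exon, chr5:135867127-135867146, forward strand: GAGGAAGTGCCACTTTATTG
Srrm4 16-base exon, chr5:116454673-116454688, reverse strand: GAGGAGTCCTTGCTTG
The Srrm4 microexon had a PSI of 0.159 and 0.196 in WT mice 2 and 3 and of 0.122, 0.1601 and 0.129 in KO mice 1, 2 and 3. It rests on a single transcript, Srrm4-205 of 682 bases, annotated for nonsense-mediated decay, which was listed at 0 in WT mouse 1 (limma over all mice, unadjusted p = 0.432). From estimated counts the PSI did not exceed 0.0169 in any mouse. The Srrm3 microexon was nearly always skipped, with a mean PSI of 0.0144 in WT and 0.0141 in KO, and was below the limit of 0.05 set for testing. Srrm4-203, an intron-retaining transcript of 6555 bases, held 0.299, 0.226 and 0.233 of the gene's TPM in WT and 0.389, 0.238 and 0.279 in KO, with overlap.

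Together, 21 of the 42 annotated splicing events of these genes could be tested, in 7 of the 10 genes. They comprised 9 cassette exons (SE), 7 alternative 3′ splice sites (A3SS), 1 alternative 5′ splice site (A5SS), 2 pairs of mutually exclusive exons (MXE) and 2 retained introns (RI). None passed the limits for events, a PSI difference of 0.05 or more at an adjusted p no higher than 0.01, as was 0% of all 18568 tested events. None had an unadjusted p below 0.05 either, beside 3.29% of all events (limma). The paper applied the same limits to another measure, reads supporting each form of an event, with unannotated splice sites included. It reports many altered events in the KO hippocampus, so the 0% here holds only for TPM ratios of annotated transcripts. The genotypes did not overlap in 4 of the 21 events, beside 11% of all events. These were the Rbfox2 51-base exon, the Rbfox3 40-base upstream exon, the Ptbp1 78-base exon and a Rbfox3 alternative 3′ splice site of 1397 bases whose PSI was 0.0824 to 0.0863 in WT and 0.0873 to 0.0911 in KO. Both mice numbered 1 lay above the other 4 in 8 events and below them in 4, where 19% and 26.2% of all events did so. In the usage test, 0 of the 10 genes passed, while 0.162% of all 13560 genes tested did (edgeR, 22 genes), and none of the 10 had an unadjusted p below 0.05, as 1.67% of all genes had.

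**Figure D5:**
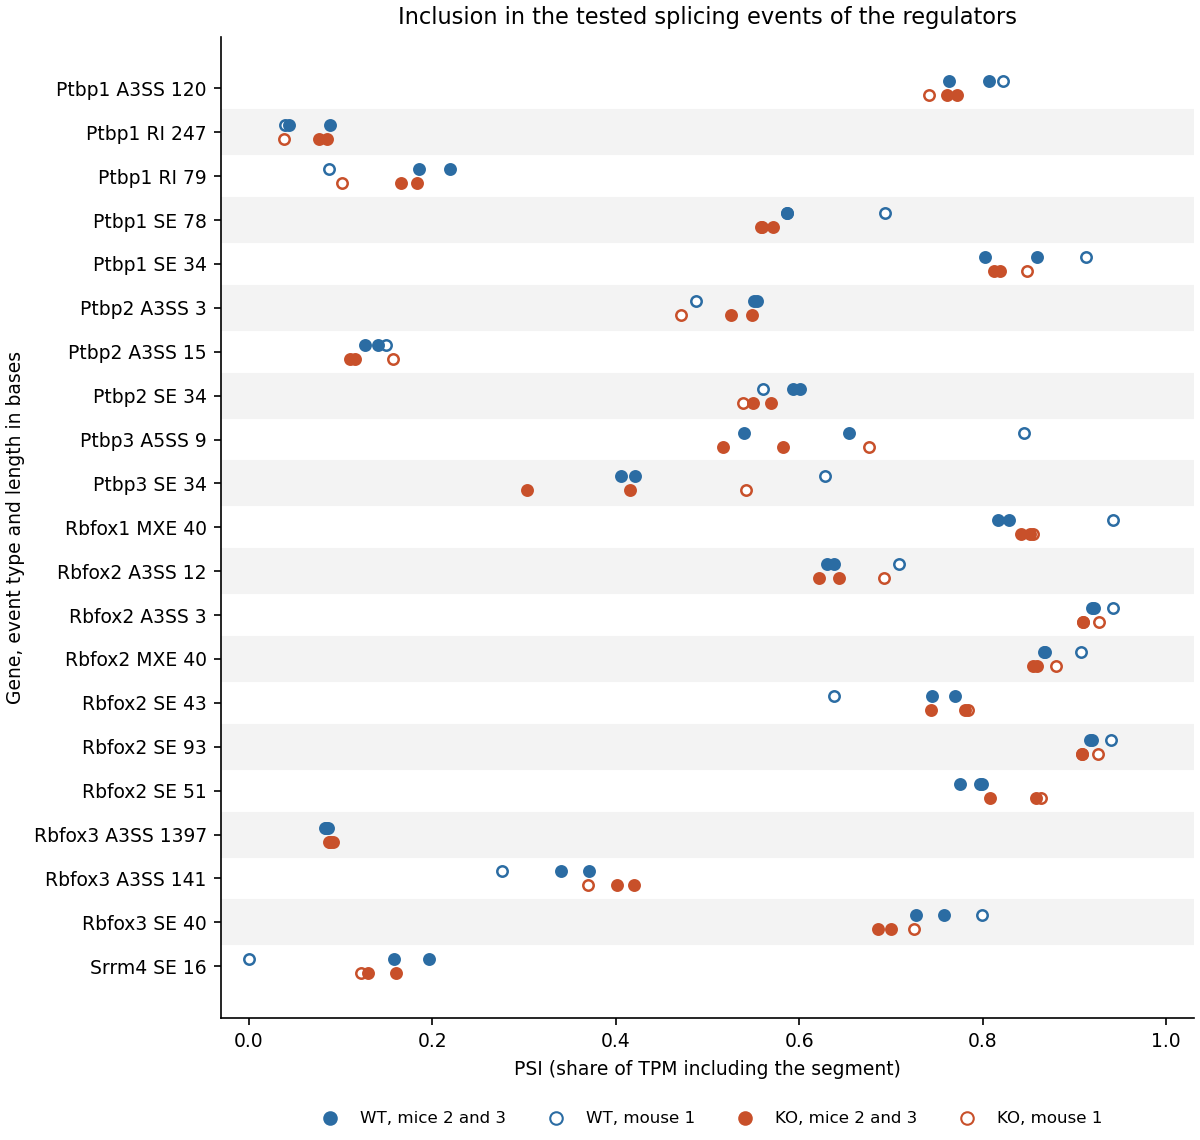
PSI of the 21 tested events of the regulators in each mouse, labelled by gene, event type and length in bases, with WT in blue, Prmt9 KO in orange and open circles for the mice numbered 1. The Ptbp1 78-base exon, the Rbfox2 51-base exon and 2 Rbfox3 events have no overlap between genotypes, and the open circles often lie at the edge of a row.

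The genes that act with these regulators were compared in the same fits. Of 19 partners and cofactors, such as the large assembly of splicing regulators that binds Rbfox and the general splicing factors bound by SRRM proteins, 0 passed the expression thresholds and 0 had an unadjusted p below 0.05 (edgeR). Their median log2 fold change was −0.01, and Hnrnpc and Hnrnph1, the partners with the smallest p, were at −0.10 and −0.09 with SE of 0.11 and 0.10. Of 24 other neural splicing regulators, including the Celf, Mbnl and Elavl families, 0 passed and 0 had an unadjusted p below 0.05, at a median of −0.00. Khdrbs1 was at −0.13 with an SE of 0.10 and Mbnl3 at 0.27 with an SE of 0.22. Matr3, which works with PTBP1, and Rbm4 had the lowest usage p of their lists, 0.00911 and 0.00819 unadjusted, and adjusted p of 0.994 and 0.949 (edgeR, Simes). Next in each list were Rest at an unadjusted usage p of 0.858 and Elavl1 at 0.454.

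Known target genes of each family were compared in the same way. Of 20 Rbfox target genes, 0 passed the expression thresholds and 1, Camk2d, had an unadjusted p below 0.05, beside 1.24% of all genes. Camk2d encodes a calcium-dependent kinase subunit. Its TPM was 16.4, 28.3 and 26.0 in WT and 36.3, 35.2 and 31.1 in KO, without overlap, as for 6.73% of all genes. The log2 fold change was 0.39 with an SE of 0.14 (edgeR, unadjusted p = 0.0348, adjusted p = 0.9999). Of the Nova, Ptbp and SRRM targets, 20 genes each, 0 passed and 0 had an unadjusted p below 0.05, and the medians of the 4 lists lay between −0.05 and 0.04. By the smallest p, Tsc2 led after Camk2d at −0.13 with an SE of 0.11, the Nova targets were led by Agrn at −0.12 and Dcc at 0.11, the Ptbp targets by Flna at 0.18 and Hdac7 at −0.12, and the SRRM targets by Unc13b at 0.16 and Src at −0.11.

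In the usage test 1 of the 19 tested Nova targets passed, namely Nrxn2, a presynaptic adhesion gene (edgeR, Simes, adjusted p = 0.00176), and 0 passed among the tested genes of the other 3 target lists. Of all genes tested for usage, 0.162% passed. The Nrxn2 call came from Nrxn2-201, which was at 0.610 and 0.660 TPM in WT mice 2 and 3, at nearly 0 in WT mouse 1, and at 9.11, 3.61 and 4.46 TPM in KO mice 1, 2 and 3. Nrxn2 passed under 5 of 13 settings, and with the mouse number as a block its adjusted p was 0.0161 (edgeR, Simes). With at least 10 counts in every mouse it was above 0.99 (edgeR, Simes). That filter removes Nrxn2-201, which was nearly 0 in WT mouse 1, so this setting cannot test the transcript behind the call. Agrn, a synapse organizer, and Clasp1, which binds microtubule ends, had adjusted p of 0.0200 (edgeR, Simes), from transcripts at no more than 0.133 and 0.736 TPM. The lowest usage p of the other lists were 0.00378 for Camk2d and 0.0695 for Grin1 among Rbfox targets, 0.510 for Camsap1 among Ptbp targets, and 0.00228 for Apbb1 and 0.0695 for Asap1 among SRRM targets, with adjusted p of 0.373 or more (edgeR, Simes).

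Events in target genes with an unadjusted p below 0.05 were few, and those named here were chosen after their values were seen. They numbered 3 of 93 for Rbfox, all in the NMDA receptor gene Grin1, 3 of 92 for Nova, in Epha5, Cask and Slit2, 2 of 66 for Ptbp, in Dlg4 and Camsap1, and 0 of 88 for SRRM targets, beside 3.29% of all events (limma). Each had an adjusted p of 1 with all mice. In Slit2, a guidance cue, a microexon of 24 bases had a PSI of 0.371, 0.387 and 0.312 in WT and 0.214, 0.266 and 0.249 in KO (limma, unadjusted p = 0.00903). These values did not overlap, as in 11% of all events. In Cask, a synaptic scaffold gene, an exon of 69 bases had 1, 0.739 and 0.806 in WT and 0.448, 0.584 and 0.629 in KO (limma, unadjusted p = 0.0354). In Dlg4, which encodes PSD-95, an exon of 165 bases had 0.432, 0.406 and 0.378 in WT and 0.208, 0.320 and 0.296 in KO (limma, unadjusted p = 0.0151). The smallest unadjusted p of these target events was that of a Grin1 exon of 63 bases (limma, unadjusted p = 0.00247). Its PSI was 0.111, 0.110 and 0.108 in WT and 0.0518, 0.0579 and 0.0586 in KO. Among partners and other regulators, the events numbered 2 of 62, in Matr3 and Hnrnpc, and 1 of 78, in Fmr1.

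Microexons of at most 27 bases gave 23 tested events in the SRRM targets, and 0 of these had an unadjusted p below 0.05, beside 1.97% of the 458 such events in all genes. The Src microexon of 18 bases, which gives the neuronal form of this kinase, had a PSI of 0.721, 0.787 and 0.785 in WT and 0.675, 0.771 and 0.778 in KO. The Mef2d microexon of 21 bases had 0.172, 0.268 and 0.266 in WT and 0.196, 0.244 and 0.233 in KO. In both microexons the mice numbered 1 were the lowest. Of the 23 events, both mice numbered 1 were below the other 4 in 7 and above them in 10, against 23.4% and 29.3% of the 458. The Kif1b microexon of 18 bases was among the higher, at 0.973 in both mice numbered 1 and 0.861 to 0.872 in the others. The 23 events are not all independent. The Asap1 exon of 9 bases and the Eif4g3 exon of 21 bases each enter more than once, and the Vav2 exons of 15 bases have the same PSI in every mouse.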

How the data were processed

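Poly(A)+ RNA of 6 hippocampi (3 WT, 3 Prmt9 KO) was sequenced by the authors with a stranded kit and paired-end reads. The deposited files hold kallisto estimated counts and TPM for 118783 transcripts per mouse, and a gene table of TPM; the labels name kallisto 0.46.0 and STAR 2.7.1a and the build GRCm38. Of these transcripts 116622 matched GENCODE M21, and the 2161 others were not used. Columns of no sample numbered 0. Gene counts were rounded sums of the estimated counts. Totals of 194098391 to 286771677 counts per mouse set the precision.

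Tests were fitted on all features in R 4.3.3. Genes and transcripts were compared with edgeR 4.0.16 (TMM, filterByExpr, quasi-likelihood, Benjamini-Hochberg), usage with diffSpliceDGE and Simes, and events with limma 3.58.1 on log2 ratios of TPM with 0.1 TPM added, at 1 TPM or more in every mouse and a mean PSI of 0.05 to 0.95 in at least 1 genotype. CPM were TMM-normalized. Each fit was tested on simulated data. DESeq2 1.42.0, other filters and units, a replicate block and omitted mice were alternatives. Events came from annotated exons, since junction reads were not used here. Sequences are from GENCODE M21 transcripts. P-values of the fits compare the difference between genotypes with the spread between mice.

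All members and Prmt9 were named. From each partner, regulator and target list, genes with an adjusted p below 0.05 in expression or usage were named, otherwise the 2 with the smallest p; 1 gene that this rule names is not reported here. The members and lists were chosen with earlier results of these data known. WT and KO mice of the same number deviated together from their group means (r = 0.784, 0.707 and 0.665 over genes). Both mice numbered 1 stood apart, which moves the other mice of each genotype to the opposite side of its mean. These correlations therefore cannot tell whether the numbers pair the mice. The main tests were unpaired, and the replicate block was an alternative.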

Additional observations from a re-analysis of the deposited data

How the results depend on the processing

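No regulator was called in gene expression, usage or events under any setting tried, and of their transcripts Rbfox3-204 was called with DESeq2 alone. The replicate block changed no call of the regulators. Genes called numbered 0 with all mice, 2 with DESeq2, and 1 each with a term for the mice numbered 1 and without both of these mice. Transcripts called numbered 0, against 112 with DESeq2, and events 0 under every setting. Genes called for usage numbered 22, against 3 with limma, 12 with an F test, 1 with at least 10 counts in every mouse, 69 with a term for the mice numbered 1, 230 without both of these mice, 26 with the replicate block, and 6 to 139 without single mice (139 without WT mouse 1, 6 without KO mouse 3). Member shares without overlap numbered 3, and 3 to 11 without single mice (11 without WT mouse 1, 9 without WT mouse 3, 8 without KO mouse 1). They numbered 4 without WT mouse 2, 3 without KO mouse 2 and 4 without KO mouse 3. Fewer mice make overlap rarer, and the count also depended on which mouse was left out. The log2 ratio of Ptbp1 to Ptbp2 was 0.11, a mean that the replicate block cannot alter with 3 mice in each genotype, and −0.0693 to 0.290 without single mice. Relative to the whole gene's TPM, the Rbfox2 93-base exon differed by 0.000474 in place of −0.0115.

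Log2 fold changes near 0 turned sign, and the cause was not tested. On limma's log2 TPM scale with 1 and 0.1 TPM added, Rbfox1 was at 0.000183 and 0.000583 and Ptbp3 at 0.13 and 0.15. This scale put 67.4% and 67.7% of all genes higher in KO, against 46.9% in edgeR. Without both mice numbered 1, Rbfox2 was at −0.0449, Nova1 at −0.0553, Ptbp2 at −0.0080 and Srrm3 at −0.0370. Ptbp2 was at −0.0037 with DESeq2 and −0.0034 with its size factors. Without single mice, values ran from −0.24 to 0.0852 for Rbfox1, −0.0665 to 0.11 for Rbfox2, −0.0219 to 0.0730 for Nova1, −0.12 to 0.12 for Ptbp2, −0.21 to 0.0298 for Ptbp3 and −0.15 to 0.13 for Srrm3. KO minus WT differences in the share of transcripts not annotated as protein-coding ran from −0.00041 to 0.0015 for Rbfox1, −0.0043 to 0.0028 for Rbfox3, −0.0048 to 0.0136 for Nova1, −0.0470 to 0.0605 for Ptbp1, −0.0385 to 0.0321 for Ptbp3 and −0.0434 to 0.0067 for Srrm3. From estimated counts they were −0.00028 for Nova1 and 0.0031 for Ptbp3.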
